A study of Homo sapiens with 4 samples.

Results

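Potassium channel genes were followed after knockdown of IGF2BP3 in SK-N-BE(2), a human neuroblastoma line in long use that carries amplified MYCN. A gene was taken where its protein-coding symbol is a KCN subfamily prefix followed by a number, which covers pore-forming subunits (KCNA to KCND, KCNF to KCNH, KCNJ, KCNK, KCNMA, KCNN, KCNQ, KCNS to KCNV) and the accessory subunits KCNAB, KCNE, KCNIP and KCNMB. The deposited table of 64252 genes held 95 such genes, and 58 of them had 10 or more counts in at least 2 of the 4 libraries. In the 2 shIGF2BP3 libraries the cells carried a hairpin RNA that targets IGF2BP3, an RNA-binding protein that reads the m6A mark on mRNA, and in the 2 shControl libraries they carried a control hairpin. Both groups are the same cell line with no other treatment named, and the labels give neither the hairpin sequences nor the time after delivery. By its title, the study asks about m6A, IGF2BP3 and how stable the E2F2 mRNA is, while the libraries measure RNA levels alone. Nothing in the labels says that replicates were separate cultures, so the p-values reflect only library-to-library spread, which may be technical.

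Potassium channels let potassium ions leave or enter a cell down their gradient, and so set the resting potential and end each action potential. Voltage-gated (Kv) channels open on depolarisation, calcium- and sodium-activated channels open when those ions rise inside the cell, inward rectifiers (Kir) hold the resting potential, and tandem-pore-domain (K2P) channels carry a standing leak. Silent Kv subunits make no channel alone and modify Kv2 channels, and accessory subunits change how fast, how often and where the pores open. Neuroblastoma cells derive from the sympathetic lineage, whose neurons use M-type (Kv7), ether-a-go-go (KCNH), BK and SK channels to control firing.

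Most potassium channel pore loops carry a selectivity filter built around a glycine, an aromatic residue and a glycine. The codons for it show which of the named genes encode a pore and which do not. In GENCODE 29 transcripts (GRCh38), a script found this signature in all 79 pore-forming members and in none of the 16 accessory members. In 11 members, all of them KCNK genes, it was found in 2 places, while KCNK1, KCNK6, KCNK7 and KCNK15 held it in 1. The coding runs below are 27 bases long, 5′ to 3′, with the 3 filter codons in capitals, for the members that lead the results.
KCNQ5 (chromosome 6): ttgacaactattGGCTATGGAgacaaa
KCNG1 (chromosome 20): atgacgacggtgGGCTATGGCgacatg
KCNH2 (chromosome 7): ctcaccagtgtgGGCTTCGGCaacgtc
KCNH5 (chromosome 14): cttacaaccataGGATTTGGAaacata
KCNMA1 (chromosome 10): atgtccaccgttGGTTATGGGgatgtt
KCNJ8 (chromosome 12): caagttaccattGGGTTTGGAgggagg
KCNK3, first pore loop (chromosome 2): atcaccaccatcGGCTACGGGcacgcg
KCNK3, second pore loop (chromosome 2): ctcaccaccatcGGCTTCGGCgactac
The aromatic codon is one for tyrosine (TAT or TAC) in the Kv7, Kv6 and BK genes shown, and one for phenylalanine (TTT or TTC) in the ether-a-go-go genes and KCNJ8. KCNK3 carries one of each.

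Library totals lay between 26755695 and 31946756 counts. IGF2BP3 had 813 and 875 counts in the shIGF2BP3 libraries, against 4215 and 4347 in the shControl libraries, so both hairpin libraries went with their label. All 10 adrenergic neuroblast markers were measured, with summed levels of 2482 and 2289 CPM in shIGF2BP3 and 3425 and 3506 CPM in shControl (CPM are counts scaled to a common library total, with TMM factors). Of these, 2 were higher, 7 lower and 1 not called after knockdown, where 25.9% of all tested genes were higher and 25.6% lower. Markers of other cell types also moved. The 8 fibroblast markers summed to 1053 and 1037 CPM in shIGF2BP3, against 831 and 865 CPM in shControl, with 4 higher, 1 lower and 3 not called. The 8 Schwann cell and glia markers summed to 9.21 and 9.44 CPM in shIGF2BP3, against 5.87 and 6.17 CPM in shControl, with 1 of 5 tested markers higher and 1 lower, and SOX10 and CDH19 were at 0 in all 4 libraries. Endothelial markers summed to at most 5.34 CPM in any library (0 of 2 tested higher and 1 lower, PECAM1 and KDR at 0), and leukocyte markers to at most 6.07 CPM (1 of 3 higher and 1 lower, CD3E and LYZ at 0). The part of these shifts in the results below was not tested, and in bulk RNA fewer cells of a type and less RNA per cell cannot be told apart.

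Many potassium channel genes moved after knockdown, and they moved both ways. Of the 58 genes at the count minimum, 57 entered the test, and 40 of these (70.2%) passed edgeR's quasi-likelihood test at a Benjamini-Hochberg adjusted p under 0.05, where 51.5% of all 19767 tested genes did. Higher members numbered 21 (36.8%, against 25.9% of all tested genes), lower members 19 (33.3%, against 25.6%), and 17 were not called. At least 2-fold changes were called for 24 members (42.1%, against 19.5% of all tested genes), 12 higher and 12 lower. The members' median log2 fold change was -0.03, beside 0.01 over all tested genes, and their median absolute change was 0.74, beside 0.51. The groups did not overlap in 47 members (82.5%), where 74.5% of all tested genes had groups that did not overlap. Each share of the members lay above its background share, without a test of the list itself, and the members' calls split between the directions about as evenly as those of all genes. KCNA6 and KCNH3 reached the count minimum through the control libraries alone and so had to differ. KCNK13 passed the test's filter through the knockdown libraries alone, and so had to differ too. Leaving out shControl replicate 1 left fewer members called higher than leaving out any other library. The share of members called higher then fell by more than the share of all tested genes called in either direction. The number of higher members thus depends in part on that control library. So does the excess of called members over all tested genes, which shrank when any library was left out and most without that one.

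**Figure D1:**
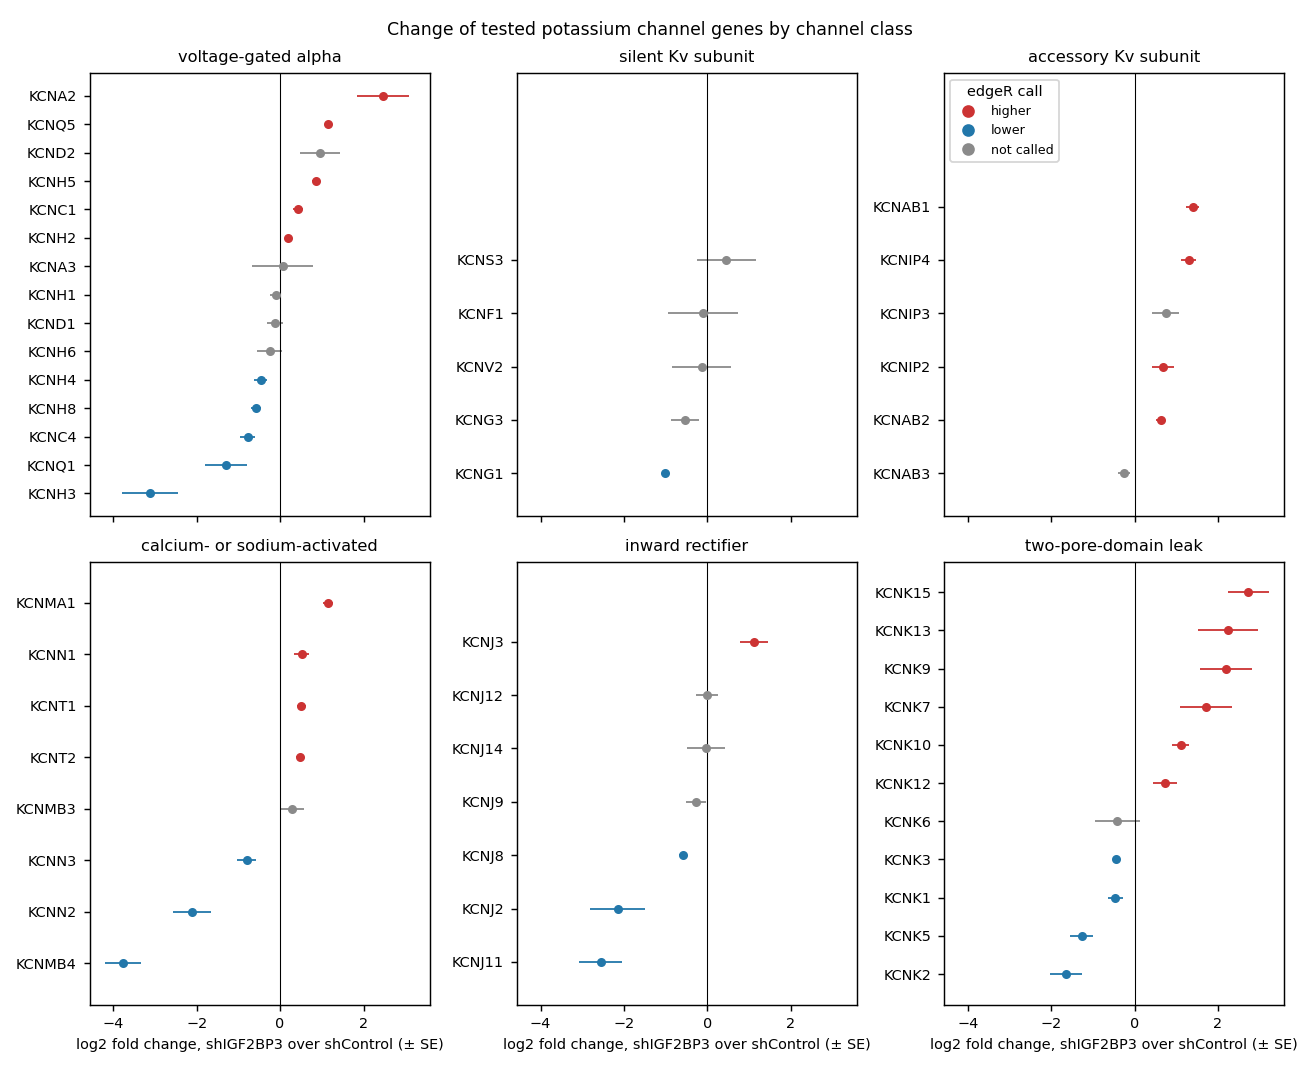
Log2 fold change of shIGF2BP3 over shControl (horizontal axis) for the tested potassium channel genes, 1 panel for each channel class, with bars of 1 standard error from edgeR and colour for the call. KCNA6 is not drawn, since it had 0 counts in both shIGF2BP3 libraries, and some other genes are not shown. Among accessory Kv subunits 4 of 6 were higher and none lower, while the other panels hold calls on both sides or, for silent subunits, a single lower gene. The KCNMB accessory genes belong to the calcium- or sodium-activated class, where KCNMB4 was lower.

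**Figure D2:**
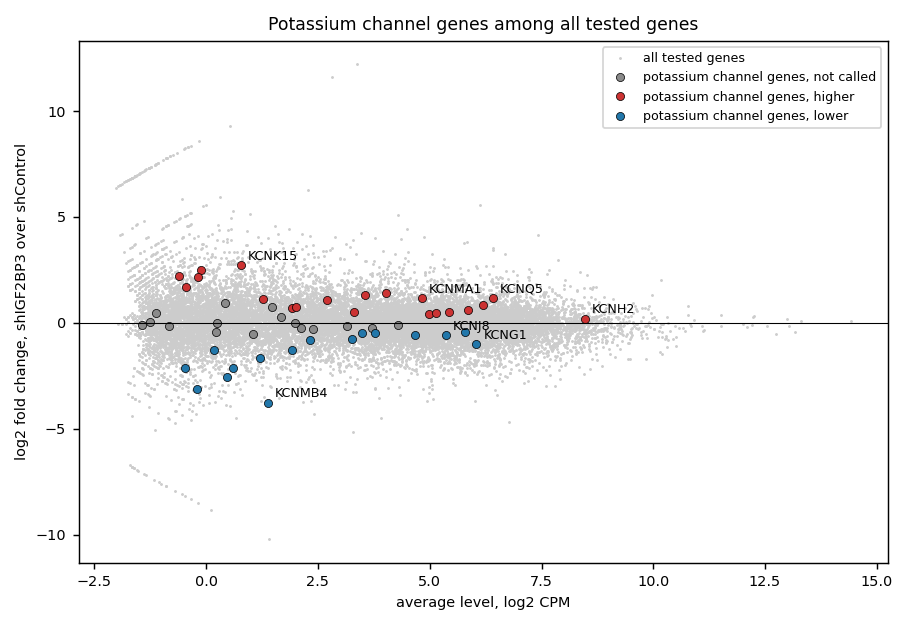
Log2 fold change of shIGF2BP3 over shControl against average level in log2 CPM, for all tested genes (grey dots) and the potassium channel genes (large points, coloured by call, with KCNA6 and some others not drawn). Straight lines of dots at low level are genes with few or no counts in a group, whose fitted fold changes depend on the prior count. KCNH2 is the most abundant member and changed little, whereas KCNMB4 and KCNK15 stand away from 0.

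The class with the highest summed level was the voltage-gated pore subunits. Levels between genes are given as RPKM, here CPM per kilobase of merged exon length. KCNH2, the hERG channel of cardiac repolarisation whose current has been described in neuroblastoma cells, led with 66.7 and 61.8 RPKM in shIGF2BP3, against 53.7 and 59 RPKM in shControl, and made up 33.7% of the summed RPKM of all members. KCNJ8 followed at 13 and 13.4 RPKM in shIGF2BP3, against 19.3 and 20.5 RPKM in shControl. KCNG1 had 8.17 and 7.81 RPKM in shIGF2BP3, against 15.4 and 16.9 RPKM in shControl. The order of the genes behind KCNH2 thus differed between the groups: KCNQ5 stood above KCNJ8 and KCNG1 in both shIGF2BP3 libraries (15.1 and 15.8 RPKM) and below both in the shControl libraries (6.54 and 7.25 RPKM). KCNK3, KCNAB2, KCNH5 and KCNT2 completed the 8 most abundant members, with means over all libraries of 8.91, 6.05, 5.92 and 4.92 RPKM. With the length of a single principal transcript in place of merged exons, KCNH2 stayed first (82.7 RPKM) and KCNG1 stood above KCNJ8 (29.6 and 17.2 RPKM), so ranks below the first depend on the length used. By that length KCNQ5 stood below KCNG1 in every library, so its crossing with KCNG1 is seen by merged exons alone. The crossing of KCNQ5 with KCNJ8 held by either length. Summed over each class, voltage-gated pores gave 112 and 106 RPKM in shIGF2BP3, against 87.6 and 95.3 RPKM in shControl.

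**Figure D3:**
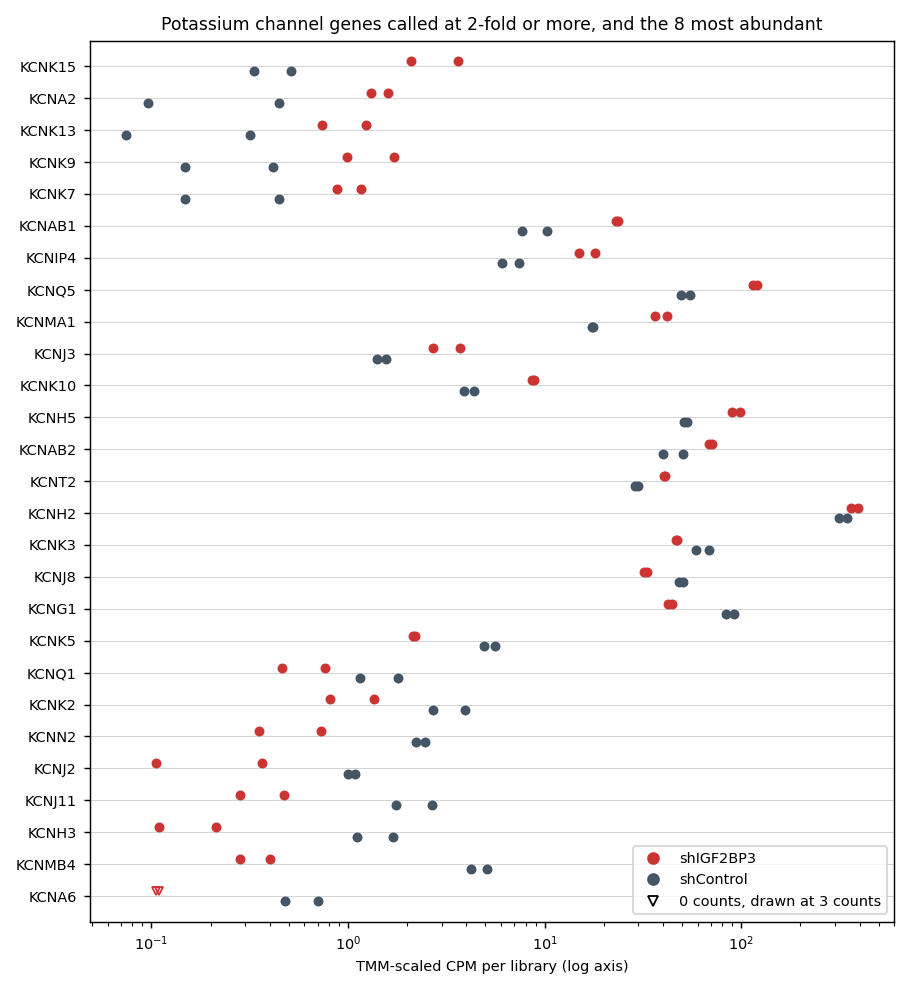
TMM-scaled CPM (horizontal log axis) in each of the 4 libraries for the members called at 2-fold or more and the 8 most abundant members, some genes not shown, ordered by fold change, with shIGF2BP3 libraries above shControl libraries in each row. Open triangles mark 0 counts, drawn at the level of 3 counts. No gene shown has overlapping groups, but most were chosen for their calls, which favours this, and 74.5% of all tested genes did not overlap either. The spread between replicates widens toward the left, below about 1 CPM.

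Among M-type (Kv7) genes, KCNQ5 rose and KCNQ1 fell. KCNQ5, a pore subunit of the neuronal M-current that damps repetitive firing (plus strand of chromosome 6, 72621792 to 73198851), had 115 and 120 CPM in shIGF2BP3, against 49.5 and 54.9 CPM in shControl. Both knockdown libraries were more than 2-fold above both controls, with a log2 fold change of 1.16 (SE 0.08, edgeR adjusted p = 1.915e-09), the lowest adjusted p among the members. KCNQ1, the pore of the slow cardiac delayed rectifier, had 13 and 21 counts in shIGF2BP3, against 31 and 56 in shControl (log2 -1.29, SE 0.50, edgeR adjusted p = 0.03879), and its call ended under 8 alternatives, among them the removal of shIGF2BP3 replicate 1, shIGF2BP3 replicate 2 or shControl replicate 2 (edgeR adjusted p = 0.2319, 0.05397 and 0.2956). KCNQ1 shares 121 exon bases, 2.72% of its exon length, with its antisense transcript KCNQ1OT1. That transcript went the other way (788 and 683 counts in shIGF2BP3, against 359 and 511 in shControl). Since the strand setting is not given, reads from the shared bases may not have been told apart. KCNQ3 had at most 14 counts and fell below the minimum.

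Fast delayed rectifiers (Kv3), whose rapid gating allows high-frequency firing, moved both ways. KCNC1 was higher, at 36.2 ± 0.853 CPM in shIGF2BP3 and 26.9 ± 4.84 CPM in shControl (SD, n = 2 each; log2 0.42, SE 0.12, edgeR adjusted p = 0.007216), a call that ended without shControl replicate 1 (edgeR adjusted p = 0.1084) and with no low-count filter (edgeR adjusted p = 0.05906). KCNC4, whose channel inactivates quickly, fell to 6.96 ± 0.107 CPM in shIGF2BP3, against 12 ± 0.011 CPM in shControl (SD, n = 2 each; log2 -0.78, SE 0.18, edgeR adjusted p = 0.001099). KCNC2 was at 0 in all 4 libraries.

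Silent Kv subunits held 1 called gene of 5 tested, where 51.5% of all tested genes were called, and it was the abundant one. KCNG1 (Kv6.1), a silent subunit that opens only in assemblies with Kv2 pores (minus strand of chromosome 20, 51003656 to 51023129), had 44.4 and 42.5 CPM in shIGF2BP3, against 83.6 and 91.8 CPM in shControl (log2 -1.01, SE 0.09, edgeR adjusted p = 2.563e-08). KCNB2 was at 0 in all 4 libraries. Of the other silent subunits, KCNG3, KCNF1, KCNV2 and KCNS3 were not called (log2 -0.54, -0.11, -0.14 and 0.45), at levels of at most 2.4 CPM in any library. Summed over the class, silent subunits gave 9.3 and 8.74 RPKM in shIGF2BP3, against 16.6 and 18.1 RPKM in shControl, nearly all of it KCNG1.

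Of 7 tested ether-a-go-go genes, 2 were higher, 3 lower and 2 not called, where 25.9% of all tested genes were higher and 25.6% lower. KCNH5 (EAG2), a slowly gating channel of brain (minus strand of chromosome 14, 62699454 to 63102037), rose to 89.9 and 98.1 CPM in shIGF2BP3, against 51 and 53 CPM in shControl (log2 0.85, SE 0.08, edgeR adjusted p = 1.348e-07). Its relative KCNH1 (EAG1) was not called, at 19.1 and 18.6 CPM in shIGF2BP3, against 20.3 and 20.4 CPM in shControl (log2 -0.11, SE 0.13). KCNH2 had 392 and 363 CPM in shIGF2BP3, against 316 and 347 CPM in shControl, a change of 0.19 on the log2 scale (SE 0.07, edgeR adjusted p = 0.02641). The KCNH2 call ended without shIGF2BP3 replicate 1 or shControl replicate 1 (edgeR adjusted p = 0.2099 and 0.2179), and with no low-count filter (edgeR adjusted p = 0.08943). The other ERG gene above the minimum, KCNH6, was not called (log2 -0.25, SE 0.30). In the ELK subgroup, KCNH8 and KCNH4 were lower. KCNH8 had 20.5 ± 0.921 CPM in shIGF2BP3 and 30.6 ± 2.13 CPM in shControl (log2 -0.58, SE 0.12, edgeR adjusted p = 0.0004919), and KCNH4 had 11.5 ± 0.627 CPM in shIGF2BP3 and 15.9 ± 0.401 CPM in shControl (SD, n = 2 each; log2 -0.47, SE 0.15, edgeR adjusted p = 0.01398). KCNH3 had 6 and 3 counts in shIGF2BP3, against 30 and 53 in shControl, and since it reached the count minimum through the control libraries alone, its call adds nothing to that of KCNH8 and KCNH4. The KCNH4 call ended with DESeq2 (adjusted p = 0.06004) and without shIGF2BP3 replicate 2 (edgeR adjusted p = 0.0958).

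Calls among the Kv1 genes rested on few counts, and no Kv4 gene was called. KCNA2 (Kv1.2), a channel of axons, had 37 and 44 counts in shIGF2BP3, against 12 and 3 in shControl (log2 2.47, SE 0.62, edgeR adjusted p = 0.002614). Its size rests on the 2 control libraries: it was 3.86 without shControl replicate 1 and 1.68 without shControl replicate 2, where the call ended (edgeR adjusted p = 0.05863). KCNA6 (Kv1.6) had 0 counts in both shIGF2BP3 libraries, against 19 and 15 in shControl, at least 5.51-fold lower with a floor of 3 counts per library, and it too reached the count minimum through the control libraries alone. All 4237 bases of its annotated exons lie within exons of GALNT8 on the same strand, so how its reads were assigned is uncertain. GALNT8 itself had 13 and 0 counts in shIGF2BP3, against 0 and 1 in shControl. KCNA3 (Kv1.3), a channel best known from T cells, had 10 and 10 counts in shIGF2BP3, against 8 and 12 in shControl, just inside the count minimum. The A-type pores KCND1 and KCND2 were not called, with log2 changes of -0.13 (SE 0.19) and 0.96 (SE 0.48). KCND2 had 57 and 38 counts in shIGF2BP3, against 11 and 40 in shControl, and without shControl replicate 2 its change was 2.03 (edgeR adjusted p = 0.01726).

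Of 12 accessory Kv subunit genes, 6 were tested, with 4 higher, none lower and 2 not called, where 25.9% of all tested genes were higher and 25.6% lower. The other 6 lay below the count minimum, and the KCNMB accessory subunits, not counted here, are given with the BK channel below. KCNAB1, a cytoplasmic beta subunit that speeds inactivation of Kv1 channels (plus strand of chromosome 3, 156037701 to 156539138), had 23 and 23.5 CPM in shIGF2BP3, against 10.3 and 7.67 CPM in shControl (log2 1.39, SE 0.16, edgeR adjusted p = 7.339e-07). KCNAB2, a beta subunit that helps Kv1 channels reach the axon, had 71.3 and 68.8 CPM in shIGF2BP3, against 39.9 and 50.7 CPM in shControl (log2 0.62, SE 0.10, edgeR adjusted p = 7.464e-05). Both beta subunits were higher in every knockdown library, whereas KCNAB3 was not called (11.6 and 12 CPM in shIGF2BP3, against 14.1 and 13.9 CPM in shControl). KCNIP4, a calcium-binding partner of Kv4 pores (minus strand of chromosome 4, 20728616 to 21948799), had 15 and 18 CPM in shIGF2BP3, against 7.43 and 6.07 CPM in shControl (log2 1.30, SE 0.18, edgeR adjusted p = 7.91e-06). KCNIP2, a Kv4 partner best known from heart, had 127 and 127 counts in shIGF2BP3, against 83 and 82 in shControl (log2 0.68, SE 0.27, edgeR adjusted p = 0.03943). The KCNIP2 call ended under 6 alternatives, the removal of any of the 4 libraries among them (edgeR adjusted p between 0.05642 and 0.2158). KCNIP3, also known as the transcriptional repressor DREAM, was not called (log2 0.74, SE 0.32, edgeR adjusted p = 0.06515). No KCNE gene reached the count minimum. The 12 accessory Kv members together gave 19.6 and 19.9 RPKM in shIGF2BP3, against 11.8 and 12.3 RPKM in shControl.

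Promoter windows from RefSeq (GRCh38.p14, 250 bases before to 50 after the start) were matched for 71 of the 95 members and 42 of the 57 tested ones. They were searched on both strands for an E2F-type word (TTTNGCGC) and for the E-box CACGTG that MYC family factors bind, because E2F2 and E2F1 both fell (log2 -1.69 and -1.45) and MYCN is amplified in this line. The E2F-type word was in 3 of 42 tested members (7.14%), beside 2.92% of 11316 tested protein-coding genes, and the E-box was in 2 of 42 (4.76%), beside 9.94%. Both called members with the E2F-type word were accessory Kv genes, KCNAB2 and KCNIP2, which were higher, and the third was KCND2, which was not called. Their windows are shown with the word in capitals, read on the gene's strand, where it appears as its reverse complement.
KCNAB2 (chr1:5992426-5992725, plus strand): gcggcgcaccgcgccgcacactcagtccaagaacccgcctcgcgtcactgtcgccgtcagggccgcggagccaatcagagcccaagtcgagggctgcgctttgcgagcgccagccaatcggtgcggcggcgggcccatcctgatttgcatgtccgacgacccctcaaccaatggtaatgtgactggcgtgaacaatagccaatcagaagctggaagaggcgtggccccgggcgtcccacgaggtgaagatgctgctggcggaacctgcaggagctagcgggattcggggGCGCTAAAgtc
KCNIP2 (chr10:101843751-101844050, minus strand): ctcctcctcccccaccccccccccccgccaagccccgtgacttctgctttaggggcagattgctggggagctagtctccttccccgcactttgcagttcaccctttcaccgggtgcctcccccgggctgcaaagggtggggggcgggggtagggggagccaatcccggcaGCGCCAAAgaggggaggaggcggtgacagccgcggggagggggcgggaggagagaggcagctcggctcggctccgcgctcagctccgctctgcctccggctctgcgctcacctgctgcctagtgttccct
The word begins 40 bases after the start in KCNAB2 and 80 bases before it in KCNIP2. A match describes these letters and is not evidence of binding.

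RNA of the pore subunit of the calcium-activated BK channel was higher, and RNA of a beta subunit was lower. KCNMA1, its pore subunit (minus strand of chromosome 10, 76869601 to 77638369), had 36.4 and 41.7 CPM in shIGF2BP3, against 17.7 and 17.4 CPM in shControl (log2 1.15, SE 0.12, edgeR adjusted p = 2.28e-07). KCNMB4, the neuronal beta subunit that slows BK gating (plus strand of chromosome 12, 70366276 to 70434292), had 8 and 11 counts in shIGF2BP3, against 114 and 160 in shControl. In CPM that is 0.282 and 0.401 in shIGF2BP3, against 4.23 and 5.11 in shControl, a 13.6-fold lower level (log2 -3.77, SE 0.43, edgeR adjusted p = 1.015e-06). The RNAs of the pore and of this beta subunit therefore went in opposite directions in both knockdown libraries. Per kilobase of merged exons, there were 0.0567 and 0.0704 KCNMB4 for each KCNMA1 in shIGF2BP3, against 1.75 and 2.15 in shControl. By principal transcript length the same ratio was 0.0101 and 0.0126 in shIGF2BP3, against 0.313 and 0.384 in shControl, so its level depends on the length used and its direction does not. KCNMB3 was not called (log2 0.29, SE 0.28), and 37.9% of its exon length overlaps PIK3CA on the opposite strand. KCNMB1 and KCNMB2 were below the minimum, with at most 10 counts in any library.

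**Figure D4:**
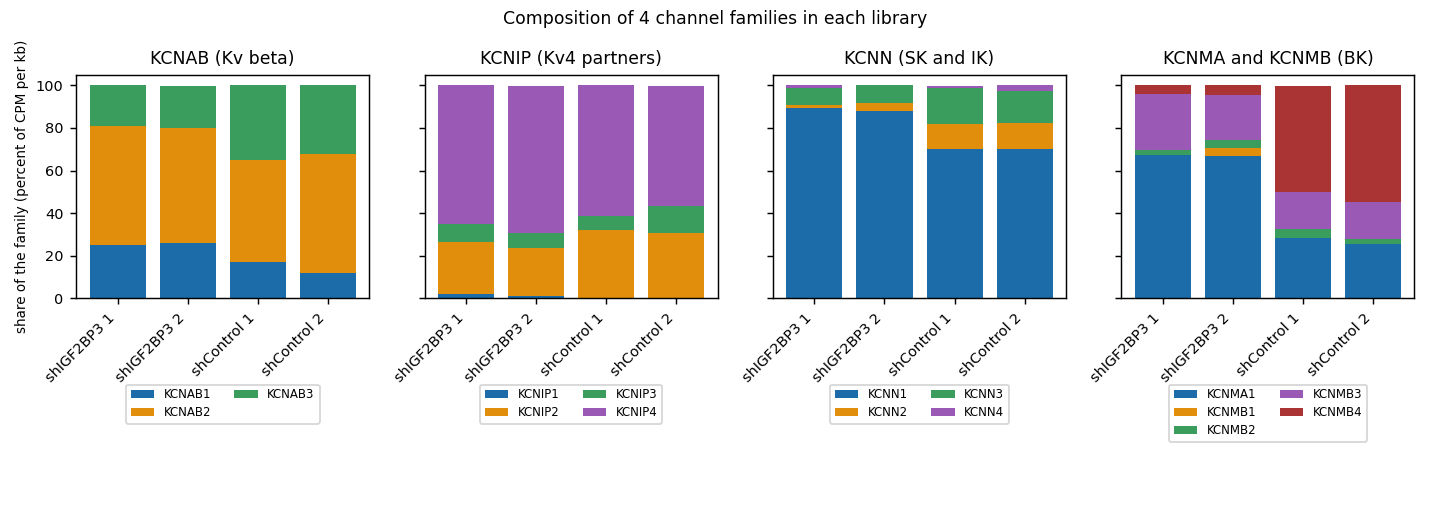
Share of each family's summed RPKM (vertical axis, percent) taken by each gene in each library, shIGF2BP3 libraries left of shControl libraries, for Kv beta, Kv4-partner, SK and IK, and BK genes. By merged exon length, KCNMB4 made up 3.82% and 4.72% of the BK genes in shIGF2BP3, against 49.9% and 55% in shControl. That share depends on the length used. By principal transcript length there were 0.313 and 0.384 KCNMB4 for each KCNMA1 in shControl, against 0.0101 and 0.0126 in shIGF2BP3. KCNN1 and KCNAB1 took larger shares in both shIGF2BP3 libraries than in either shControl library.

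The SK channels, which calcium opens through calmodulin and which shape the afterhyperpolarisation, split between genes. KCNN2 (SK2) had 10 and 20 counts in shIGF2BP3, against 60 and 77 in shControl (log2 -2.12, SE 0.46, edgeR adjusted p = 0.000801), and -2.72 without shIGF2BP3 replicate 2. KCNN3 (SK3) had 106 and 95 counts in shIGF2BP3, against 175 and 191 in shControl (log2 -0.80, SE 0.23, edgeR adjusted p = 0.008136), a call that ended without shIGF2BP3 replicate 2 (edgeR adjusted p = 0.05522). KCNN1 (SK1) went the other way, with 361 and 288 counts in shIGF2BP3, against 213 and 261 in shControl (log2 0.52, SE 0.18, edgeR adjusted p = 0.02211). The KCNN1 call ended under 4 alternatives, among them the removal of shIGF2BP3 replicate 1 or shControl replicate 1 (edgeR adjusted p = 0.2115 and 0.06562). KCNN1 was the main SK gene throughout, at 89.4% and 87.8% of the family's RPKM in shIGF2BP3, against 69.9% and 69.9% in shControl. Both sodium-activated channels rose by similar amounts: KCNT1 (Slack) had 48.6 and 52.6 CPM in shIGF2BP3, against 31.7 and 39.1 CPM in shControl (log2 0.51, SE 0.11), and KCNT2 (Slick) had 40.3 and 41.2 CPM in shIGF2BP3, against 29.7 and 28.7 CPM in shControl (log2 0.48, SE 0.10). Their edgeR adjusted p-values were 0.0006496 and 0.0006307.

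Inward rectifiers were lower in 3 of 7 tested genes, higher in 1 and not called in 3, a share of calls near the 51.5% of all tested genes, so nothing is read from the class as a whole. Both pores of ATP-sensitive (KATP) channels, which close when ATP is plentiful, were among the lower genes. KCNJ8 (Kir6.1; minus strand of chromosome 12, 21764955 to 21775581) had 32.2 and 33.3 CPM in shIGF2BP3, against 48 and 50.8 CPM in shControl (log2 -0.59, SE 0.10, edgeR adjusted p = 5.21e-05). KCNJ11 (Kir6.2) had 8 and 13 counts in shIGF2BP3, against 47 and 84 in shControl (log2 -2.56, SE 0.51, edgeR adjusted p = 0.0004206). KCNJ8 made up 82.3% and 80.4% of the family's RPKM in shIGF2BP3, against 84.1% and 82.9% in shControl, so it remained the leading Kir gene. KCNJ2 (Kir2.1), a pore of the classical inward rectifier, had 3 and 10 counts in shIGF2BP3, against 27 and 34 in shControl (log2 -2.15, SE 0.66, edgeR adjusted p = 0.01115). The KCNJ2 change was -1.51 without shIGF2BP3 replicate 1, where the call ended (edgeR adjusted p = 0.132), and -3.25 without shIGF2BP3 replicate 2, and the call also ended with DESeq2 (adjusted p = 0.08275). KCNJ3 (GIRK1), a G-protein-gated pore, was the higher gene, with 77 and 102 counts in shIGF2BP3, against 42 and 44 in shControl (log2 1.12, SE 0.34, edgeR adjusted p = 0.01047). Its call ended with DESeq2 (adjusted p = 0.06964) and without shIGF2BP3 replicate 2 or shControl replicate 2 (edgeR adjusted p = 0.1112 and 0.05786). KCNJ9 (GIRK3), KCNJ12 (Kir2.2) and KCNJ14 (Kir2.4) were not called, with log2 changes of -0.28, -0.01 and -0.03. KCNJ12 has a near-identical copy, KCNJ18, with at most 2 counts in any library, so the split of reads between them is uncertain.

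Among the 11 tested K2P leak channel genes, 6 were higher, 4 lower and 1 not called, where 51.5% of all tested genes were called, and the 2 genes with the highest RPKM were both lower. KCNK3 (TASK-1), an acid-sensitive background channel (plus strand of chromosome 2, 26692690 to 26733420), had 46.8 and 47.4 CPM in shIGF2BP3, against 59.1 and 68.6 CPM in shControl (log2 -0.44, SE 0.09, edgeR adjusted p = 0.0007131). KCNK1 (TWIK-1), the next by RPKM, had 294 and 228 counts in shIGF2BP3, against 344 and 404 in shControl (log2 -0.46, SE 0.17, edgeR adjusted p = 0.03212). The KCNK1 call ended under 7 alternatives, among them 2 other scalings and the removal of shIGF2BP3 replicate 2, shControl replicate 1 or shControl replicate 2 (edgeR adjusted p = 0.2647, 0.05555 and 0.06521). KCNK5 (TASK-2), an alkaline-activated channel, had 2.15 and 2.19 CPM in shIGF2BP3, against 5.61 and 4.89 CPM in shControl (log2 -1.27, SE 0.27, edgeR adjusted p = 0.0008466). KCNK2 (TREK-1), a stretch- and lipid-gated channel, had 23 and 37 counts in shIGF2BP3, against 73 and 123 in shControl (log2 -1.64, SE 0.38, edgeR adjusted p = 0.001461). Its close relative KCNK10 (TREK-2; minus strand of chromosome 14, 88180103 to 88326907) went the other way, with 8.86 and 8.64 CPM in shIGF2BP3, against 4.35 and 3.87 CPM in shControl (log2 1.10, SE 0.21, edgeR adjusted p = 0.0003). KCNK6 (TWIK-2) was not called (log2 -0.42, SE 0.54).

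The higher K2P genes other than KCNK10 were all under 6 CPM in every library. KCNK15 (TASK-5), which has not been seen to carry current on its own, had 103 and 57 counts in shIGF2BP3, against 9 and 16 in shControl (log2 2.73, SE 0.49, edgeR adjusted p = 0.0001562). Overlap with RIMS4 on the opposite strand covers 19.5% of its exons, and RIMS4 fell (log2 -1.42). The antisense transcript KCNK15-AS1 overlaps 2.19% of the KCNK15 exon length and rose (log2 1.38, SE 0.43). Whether reads were shared with either was not tested. KCNK9 (TASK-3) had 28 and 47 counts in shIGF2BP3, against 4 and 13 in shControl (log2 2.19, SE 0.62, edgeR adjusted p = 0.006405), and 3.12 without shControl replicate 2. KCNK13 (THIK-1) had 21 and 34 counts in shIGF2BP3, against 2 and 10 in shControl (log2 2.24, SE 0.71, edgeR adjusted p = 0.01348), with 1.61 and 3.63 when shControl replicate 1 or replicate 2 was left out. Relative to library totals, both of its control libraries lay below the test's filter, so KCNK13 entered through its knockdown counts alone and had to differ. KCNK7, for which no channel current is established, had 25 and 32 counts in shIGF2BP3, against 4 and 14 in shControl (log2 1.71, SE 0.63, edgeR adjusted p = 0.02955), and 2.73 without shControl replicate 2. KCNK12 (THIK-2) had 5.93 and 4.01 CPM in shIGF2BP3, against 2.34 and 3.58 CPM in shControl (log2 0.73, SE 0.29, edgeR adjusted p = 0.04393). Calls on KCNK7, KCNK9 and KCNK13 ended without shIGF2BP3 replicate 2 (edgeR adjusted p = 0.1364, 0.0758 and 0.1078) and without shControl replicate 1 (edgeR adjusted p = 0.2111, 0.0527 and 0.1126). The KCNK7 and KCNK13 calls also ended with DESeq2 (adjusted p = 0.1632 and 0.08273) and with no low-count filter (edgeR adjusted p = 0.07412 and 0.05436). The KCNK12 call ended under 7 alternatives, among them the removal of shIGF2BP3 replicate 1 or shControl replicate 1 (edgeR adjusted p = 0.3805 and 0.2353). Summed over the class, K2P genes gave 15.7 and 14.9 RPKM in shIGF2BP3, against 16.4 and 18.9 RPKM in shControl.

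Below the count minimum lay 37 of the 95 members, of which 11 were at 0 in all 4 libraries and 26 had some counts. A count of 0 allows up to 3 counts in a library, between 0.0958 and 0.111 CPM, for counting error only. KCNS3 was just inside the minimum, with 11 and 14 counts in shIGF2BP3, against 10 and 9 in shControl. KCNG4 was also inside, with 0 and 17 counts in shIGF2BP3, against 10 and 0 in shControl, but was too low for the test. Just outside were the accessory subunit KCNE3, with 11 and 9 counts in shIGF2BP3, against 0 and 3 in shControl, and the inward rectifier KCNJ10, with 0 and 9 counts in shIGF2BP3, against 4 and 43 in shControl. KCNIP1, a Kv4 partner, had 11 and 7 counts in shIGF2BP3, against 0 and 0 in shControl, at least 3.11-fold higher, and KCNJ4 (Kir2.3) had 0 and 0 in shIGF2BP3, against 8 and 13 in shControl, at least 3.31-fold lower, both with the floor of 3 counts per library and neither tested.

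Proteins that bind, cluster or regulate potassium channels were measured in the same libraries. Of 24 tested partners (28 listed), 12 were higher, 4 lower and 8 not called, where 25.9% of all tested genes were higher and 25.6% lower, with a median log2 fold change of 0.28, beside 0.01 over all tested genes. The scaffold genes DLG2 and DLG4, which cluster Kv1 and Kir2 channels at synapses and axons, had log2 changes of 3.0 (SE 0.25) and 1.21 (SE 0.11), both higher. DLG2 had 410 and 421 counts in shIGF2BP3, against 68 and 40 in shControl. ADAM22, a partner of Kv1 complexes, and SGK1, a kinase that raises the surface level of several channels, had log2 changes of 0.82 (SE 0.06) and 1.15 (SE 0.10). The 4 edgeR adjusted p-values lay between 8.07e-09 and 6.517e-08. The KATP partner ABCC9 (SUR2), named after its values were seen because it assembles with KCNJ8, had 113 and 66 counts in shIGF2BP3, against 245 and 235 in shControl (log2 -1.36, SE 0.25, edgeR adjusted p = 0.0002065), while ABCC8 (SUR1), the partner of KCNJ11, was not called (log2 -0.04, SE 0.23).

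Related cation channels and the pumps that maintain the potassium gradient were measured too. Of 5 tested HCN and CNG channels (10 listed), 4 were higher and 1 lower, where 25.9% of all tested genes were higher and 25.6% lower. HCN2, a pacemaker channel that hyperpolarisation opens, had 37.4 ± 3.46 CPM in shIGF2BP3 and 20.4 ± 1.28 CPM in shControl (SD, n = 2 each; log2 0.87). The cyclic-nucleotide-gated subunit CNGB1 was higher by 1.78 on the log2 scale, and HCN4 had 22 and 35 counts in shIGF2BP3, against 0 and 0 in shControl, at least 9.92-fold higher. HCN4 entered the test through its knockdown counts alone and so had to differ. Of 15 tested pump and cotransporter genes (20 listed), 5 were higher, 5 lower and 5 not called, where 51.5% of all tested genes were called. ATP1B1, a widely used beta subunit of the sodium pump, had 301 ± 19.2 CPM in shIGF2BP3 and 143 ± 5.17 CPM in shControl (SD, n = 2 each; log2 1.08, SE 0.07). FXYD6, a pump modulator, fell to 45.8 ± 1.47 CPM in shIGF2BP3, against 224 ± 3.88 CPM in shControl (SD, n = 2 each; log2 -2.29, SE 0.08). HCN2, CNGB1, ATP1B1 and FXYD6 passed edgeR's quasi-likelihood test.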

How the data were processed

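The authors deposited whole-number counts per Ensembl gene, 1 column per library. TRIzol was used to extract total RNA and an Illumina TruSeq kit to build libraries, per the labels' protocols. The submitters' processing notes name HISAT2 2.2.0, StringTie and hg38, with no roles. The sources used here do not give the annotation, the strand setting or how reads were counted. Counts from StringTie would be rounded coverage estimates, and overlapping or antisense genes are uncertain. Symbols came from a gene name table for 56105 identifiers and from GENCODE 29 for 486, and 7661 had none. Coordinates and exon lengths are those of GENCODE 29 on GRCh38 (hg38).

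Counts were filtered with filterByExpr (minimum count 10), scaled by TMM and tested with edgeR 4.0.16 (R 4.3.3) by the robust quasi-likelihood test, shIGF2BP3 over shControl with group alone, and p-values were adjusted by Benjamini-Hochberg over all 19767 genes and called under 0.05. There were 2 residual degrees of freedom, and a common biological coefficient of variation of 12.62%. Replicates were separable beyond counting error (chi-square per degree of freedom 7.15 in shIGF2BP3, 8.48 in shControl). Alternatives were other scalings, filters, DESeq2 1.42.0, limma 3.58.1 with voom, a replicate block, a 2-fold minimum and leaving out each library. The pipeline was also tested on simulated counts. Precision is limited by 2 libraries a group, with library totals of 26755695 to 31946756, and floors cover counting error only.

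The potassium channel genes and the other gene lists were chosen with earlier results of these data known, and so support no direction by themselves. Values per library are given for the members called at 2-fold or more and the 8 most abundant, other members by fold change or level, and up to 4 genes of each other list by smallest p, except for some genes that are not reported here. Filter codons were found by translating GENCODE 29 principal transcripts.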

Additional observations from a re-analysis of the deposited data

How the results depend on the processing

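The count of called potassium channel genes was 40 of 57 tested (21 higher, 19 lower), or 70.2%, beside 51.5% of all genes. Under other scalings, filters and tests it stayed between 31 and 40, but the number tested changed with the setting. Without the low-count filter it was 31 of 84 (36.9%), beside 24.6% of all genes, and with DESeq2 31 of 84 (36.9%), beside 24%. With at least 50 counts in at least 2 libraries it was 32 of 41 (78%), beside 62.7%. At a minimum of 2-fold it was 24 members, 12 higher and 12 lower, and 3856 of all genes. Leaving out a library gave 31 to 37 called members, 13 to 20 higher and 15 to 19 lower, and 8800 to 9442 of all genes, and the lone library of its group was then assumed to vary like the other group. Those fits tested 62 to 67 members, so their counts cannot be set directly against 40 of 57. In each of them the called share of members stayed above that of all genes, but by less than with all libraries. The excess was smallest without shControl replicate 1, where the members lay only slightly above all genes. With a replicate block there were 40 called members (21 higher, 19 lower) and 10509 of all genes. The replicate numbers were not read as pairs, since there are 2 of them, nothing in the labels ties them and the deviations of same-numbered libraries correlated at 0.0208. Of the 40 called members, 24 kept call and direction under every alternative that gave a value, 16 lost the call under at least 1 (58 values in all), and none of them changed sign. KCND2 and KCNIP3, not called, were called under at least 1. An older form of edgeR's test, added after seeing the data, called 38 members. Scaling by library size alone moved the median of all genes to 0.09 on the log2 scale, with 22 members higher and 17 lower.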
